A study of Sus scrofa with 12 samples.

Results

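The transcripts described here are those that were lower after differentiation than in undifferentiated preadipocytes, and that lay higher under each of 3 siRNAs against G-protein-coupled receptors than under a control siRNA. They were 179 of the 43221 probes of a porcine expression array, or 0.414%. The probes were chosen from the measured values. The log2 ratio of the scanner software's processed signals, sample over reference, was centred on each array's median, and a probe was kept when its mean with control siRNA was at most -1 and its mean with each targeting siRNA was at least 0.7 above that. The sample signal also had to lie well above background on all 9 targeting arrays, and the reference signal on all 3 control arrays. Falling in the controls and lying above them with every siRNA is therefore the way the probes were found and not a result, and no test is given for either.

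The cells were preadipocytes from subcutaneous tissue of female pigs, grown in low-glucose medium (1.0 g/L) with 10% fetal bovine serum. Adipose conversion used high-glucose medium (4.5 g/L) with serum, insulin at 5 µg/mL, dexamethasone at 0.25 µM, biotin at 33 µM, pantothenate at 17 µM and octanoate at 5 mM. On each of 12 arrays of 2 colours, the Cy3 channel held cells at day 4 of differentiation after transfection, and the Cy5 channel held preadipocytes at day 0, neither transfected nor differentiated. Cells had received the AllStars negative control or one targeting siRNA, directed at F2RL2, at LGR4 or at GPR124, with 3 arrays for each of the 4 groups. For the F2RL2 arrays another label spells the target R2RL2, and the sample titles were followed. All groups share the same reference and the same dye orientation, so differentiation, transfection and dye cannot be told apart in the ratio itself. The labels do not say whether the 3 arrays of a group came from separate cultures, and p-values therefore measure the spread between arrays, which may be technical.

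An siRNA guides the cell's Argonaute machinery to cleave messages that match it, so each targeting group was meant to lack most of one receptor. F2RL2 encodes a protease-activated receptor of the thrombin receptor family. LGR4 encodes a receptor for R-spondins, secreted proteins that strengthen Wnt signalling, and GPR124, also called ADGRA2, belongs to the adhesion receptors and acts with Wnt ligands at the cell surface. Wnt signalling is known to restrain fat cell formation. When preadipocytes become adipocytes, genes for lipid storage are switched on while many transcripts of the proliferating, matrix-producing precursor are switched off. Whether the probes described here stand for such transcripts was not tested. No probe identifier matched the gene tables used here (0 of 43221), and the files used here pair no probe with a gene or a sequence. The members are therefore described by their values and their rank, the knockdown of the targeted transcripts and the cell type markers were not analysed here, and no sequence is printed.

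Values below are log2 ratios, sample over reference, after background correction and a loess fit within each array, which brings the median of all measured probes to between -0.026 and 0.011 on every array. A value of -1 means that the signal of the differentiated cells was at 50% of the reference. The 12 arrays lay on 3 slides: the controls and F2RL2 replicate 1 on slide 1, F2RL2 replicates 2 and 3 and LGR4 replicates 1 and 2 on slide 2, and LGR4 replicate 3 and the GPR124 arrays on slide 3. Slide 3 had 154 to 335 outlier spots by the scanner software's marks, against 1 to 4 on the other arrays. The GPR124 arrays had 23594 to 26485 probes well above background in the reference channel, against 27003 to 32394 elsewhere. Of the 179 members, 161 lay well above background in the sample channel on all 3 control arrays, 9 on 2 of them, 3 on 1 and 6 on none. In the reference channel 172 members lay well above background on all 12 arrays, and the other members missed this 15 times on GPR124 arrays and 1 time on another targeting array. No member was saturated.

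The controls formed one narrow level and the targeting arrays lay above it. The median member stood at -1.55, -1.59 and -1.55 on the 3 control arrays. With F2RL2 siRNA it stood at -0.77, -0.93 and -0.86, with LGR4 siRNA at -0.44, -0.36 and -0.31, and with GPR124 siRNA at -0.80, -0.62 and -0.62. The lowest member read between -5.07 and -4.98 on the control arrays and between -3.63 and -3.0 on the targeting arrays, and the highest between -0.18 and -0.15 on the controls and between 1.27 and 3.91 on the others. The medians of the 3 targeting groups lay above those of the controls on every array, and the LGR4 medians lay above those of both other targeting groups without overlap. The F2RL2 and GPR124 medians overlapped, because GPR124 replicate 1 at -0.80 lay below its fellow arrays and within the F2RL2 range. The group means of these medians were -1.56 ± 0.022 for control, -0.85 ± 0.080 for F2RL2, -0.37 ± 0.068 for LGR4 and -0.68 ± 0.10 for GPR124 siRNA (SD, n = 3). In bulk RNA such as this, fewer cells that carry a transcript and less of it per cell cannot be told apart.

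Most members remained below the reference with every siRNA. None of the 179 had a mean above the reference in the controls, while 15 did with F2RL2 siRNA, 49 with LGR4 siRNA and 44 with GPR124 siRNA. On all 3 arrays of the group, 12, 46 and 29 members lay above the reference. Levels of at most -2 were found in 64 members in the controls, 24 with F2RL2, 10 with LGR4 and 18 with GPR124 siRNA. At most -3 there were 18 members in the controls, and 2, 1 and 3 with the 3 siRNAs in the same order.

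The distance from the controls was smallest for F2RL2. Its median over the members was 0.72 for F2RL2 minus control (range 0.17 to 2.44), 1.18 for LGR4 (0.037 to 4.71) and 0.89 for GPR124 (0.21 to 3.74), which are 1.65-fold, 2.27-fold and 1.86-fold, where the median of all measured probes was 0.021, 0.027 and 0.025. Set against the size of each member's own fall in the controls, the difference came to a median of 42.8% of it with F2RL2, 74.2% with LGR4 and 55.1% with GPR124 siRNA. It came to more than 50% in 74, 134 and 100 members. A difference of at least 1 was reached by 45, 110 and 75 members, and of at least 2 by 1, 28 and 10. The 3 arrays of a targeting group lay above the 3 control arrays without overlap in 176 members for F2RL2, 177 for LGR4 and 173 for GPR124, and this held for 20.9%, 24.8% and 28.7% of all measured probes. All 9 targeting arrays lay above all 3 controls in 168 members, and in 6.2% of all probes. On the processed signals, a difference of at least 0.7 was met by 3320 of all 43221 probes for F2RL2, 5010 for LGR4 and 8715 for GPR124. Since the choice of the probes used these contrasts, the order of the distances and the shares set beside each other here show nothing further.

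The order of LGR4 and GPR124 in distance from the controls depended on the scale. On the centred processed signals by which members were chosen, the median difference from control was 1.04 for F2RL2, 1.45 for LGR4 and 1.56 for GPR124, and its share of the fall was 49.6%, 70.9% and 71.2%. On that scale the centre of all measured probes also moved, by 0.10, -0.016 and 0.36 in the same order. Relative to it the members' medians were 0.94, 1.46 and 1.20. F2RL2 stood lowest on both scales. The thresholds themselves were met by 61 probes on the loess scale, each of them a member. With median centring in place of loess they were met by 138 probes, of which 92 were members.

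Which threshold mattered most can be read from the probes that missed only 1 of them. The F2RL2 threshold alone was missed by 264 probes, the GPR124 threshold by 89, the LGR4 threshold by 40 and the control threshold by 143. Another 355 were missed only for dim sample signal on a targeting array. On the centred processed scale, the member nearest to the F2RL2 threshold had a difference of 0.71 and the nearest probe outside had 0.70. For LGR4 the neighbours had 0.71 and 0.69, for GPR124 0.73 and 0.69, and for the control mean -1.01 and -0.98.

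The most deeply repressed member, AGPOA3-09980, read -4.98, -5.07 and -5.03 on the control arrays, which put the differentiated cells 32.6-fold below the reference. It read -3.22, -3.42 and -3.45 with F2RL2 siRNA, -2.36, -2.40 and -2.28 with LGR4 siRNA, and -3.03, -2.86 and -2.70 with GPR124 siRNA. No targeting array overlapped the controls, and no array of one targeting group overlapped another, in the order F2RL2, GPR124, LGR4 from low to high. Its means were -5.02 ± 0.047, -3.36 ± 0.13, -2.35 ± 0.063 and -2.86 ± 0.16 for control, F2RL2, LGR4 and GPR124 (SD, n = 3). The differences from control were 3.16-fold, 6.39-fold and 4.47-fold, and yet the transcript stayed far below its level in preadipocytes in every group. The second of the deepest members read -4.42, -4.46 and -4.44 in the controls, -3.24, -3.56 and -3.63 with F2RL2, -2.82, -2.86 and -2.88 with LGR4, and -3.58, -2.91 and -3.34 with GPR124 siRNA. There the GPR124 and F2RL2 arrays overlapped, and the LGR4 arrays stood above both. The third read -4.28, -4.42 and -4.25 in the controls, -2.45, -2.98 and -2.84 with F2RL2, -1.68, -1.75 and -1.47 with LGR4, and -1.59, -1.10 and -0.96 with GPR124 siRNA. In this one GPR124 stood highest, 8.56-fold above control, and overlapped LGR4.

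The member whose smallest difference from control was the largest, AGPOA3-44204, was the one that passed furthest beyond the preadipocyte level. It read -0.84, -0.999 and -0.96 in the controls. With LGR4 siRNA it read 3.75, 3.69 and 3.91, a mean of 3.78 ± 0.11 (SD, n = 3) and 26.2-fold above control. With F2RL2 siRNA it read 1.74, 1.27 and 1.53, and with GPR124 siRNA 0.78, 1.32 and 1.37. So a probe that was 1.91-fold below the reference with control siRNA stood above it on all 9 targeting arrays. The second by this measure was AGPOA3-09980. The third read -0.86, -0.98 and -0.92 in the controls, 0.85, 0.51 and 0.61 with F2RL2, 0.68, 0.88 and 0.88 with LGR4, and 0.50, 1.14 and 1.06 with GPR124 siRNA. All 3 targeting groups overlapped in this one, and none of its pairs differed (limma adjusted p = 0.209 to 0.691).

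Brightness set a limit at the dim end. The members with the highest control values on the loess scale were among those with the weakest signals. On the centred processed signals, by which members were chosen, the control means of the first 3 were lower, at -1.58, -1.22 and -1.09. The first, also the dimmest in the reference channel, read -0.18, -0.17 and -0.15 in the controls, 0.45, 0.51 and 0.76 with F2RL2, 1.85, 2.07 and 1.80 with LGR4, and 0.99, 1.41 and 1.14 with GPR124 siRNA. Its sample signal was not well above background on any control array, and its reference signal on no GPR124 array. For such a probe the fold over control is uncertain, because the control signal lay near background. Normalizations differ at this brightness, so the smallest of 3 estimates is given. They are per channel with a lower limit on the control signal, the loess log ratio, and Cy3 alone. In this probe the limit lay below the measured control signal and changed nothing. The smallest estimate was 1.60-fold with F2RL2, 4.21-fold with LGR4 and 2.23-fold with GPR124 siRNA. Such values are estimates and not strict bounds. The second read -0.26, -0.43 and -0.32 in the controls, 0.010, -0.34 and -0.012 with F2RL2, 0.064, 0.12 and 0.26 with LGR4, and 0.27, 0.68 and -0.012 with GPR124, and its F2RL2 arrays overlapped the controls. The third read -0.38, -0.51 and -0.28, then 0.77, 0.50 and 0.65, then 1.47, 1.65 and 1.69, then 0.55, 0.91 and 0.88 in the same order of groups, with no overlap with the controls. The second of the dimmest members in the reference channel read -0.61, -0.57 and -0.18 in the controls, -0.14, -0.22 and -0.066 with F2RL2, -0.034 and 0.00088 on the LGR4 arrays that remained after an outlier spot was left out, and 0.37, 0.57 and 0.58 with GPR124 siRNA. On the loess scale its F2RL2 arrays overlapped the controls and its GPR124 arrays did not. Its sample signal was not well above background on any control array, and its reference signal on no GPR124 array. GPR124 over control was 1.94-fold by the log ratio and 1.63-fold in Cy3 alone. On the centred processed signals its control mean was -2.44.

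In all 6 members without a sample signal well above background on any control array, these smallest estimates lay above 1 for every siRNA. The choice of members asked for higher values with every siRNA, so this is no result. The largest was 10.8-fold for GPR124 over control, in a member described below, and 5.93-fold for LGR4 over control in another. The lowest was 1.24-fold for F2RL2 over control, in the second of the dimmest members, whose F2RL2 arrays overlapped the controls. Against the reference, the controls were 1.12-fold to 2.88-fold lower in these 6 by the smallest estimate. The values against the reference are open to dye bias, since dyes were not swapped.

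At the bright end the values were moderate. The member with the brightest reference signal read -2.01, -2.33 and -2.22 in the controls, -1.33, -1.62 and -1.53 with F2RL2, -1.29, -0.93 and -1.15 with LGR4, and -1.75, -1.27 and -1.33 with GPR124 siRNA. The second brightest gave nearly the same values, -2.07, -2.34 and -2.25, then -1.37, -1.62 and -1.52, then -1.25, -0.97 and -1.10, then -1.86, -1.28 and -1.31. In both, every targeting array lay above every control array and the targeting groups overlapped or nearly met. Their pair differences did not pass (limma adjusted p = 0.0586 to 0.942).

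The siRNAs were next compared with each other, which the choice of members did not do directly. The thresholds do put a floor under each group, and the F2RL2 floor was the one most often missed, so the comparisons hold for probes chosen in this way. Where F2RL2 and LGR4 siRNA differed, levels were nearly always higher with LGR4. Of 179 members, 94 were lower and 2 higher with F2RL2 than with LGR4 siRNA and 83 did not pass (limma across all measured probes, Benjamini-Hochberg adjusted p under 0.05), where 13.9% of all measured probes passed, 8.34% lower and 5.56% higher. The median difference, F2RL2 minus LGR4, was -0.39 over the members and -0.010 over all probes. A difference of at least 1 was reached by 29 of the members that passed. On slide 2 alone, which held 2 arrays of each group, 59 members passed, all lower with F2RL2, and the median over the members was -0.43. In that fit 3.46% of all measured probes passed, and the median of all probes was -0.0067.

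The largest of these differences was in AGPOA3-02557. It read -2.71, -2.88 and -2.96 in the controls, -1.53, -1.73 and -1.84 with F2RL2, 0.60, 0.72 and 0.72 with LGR4, and -0.89, -0.67 and -0.71 with GPR124 siRNA. F2RL2 minus LGR4 was -2.38 (SE 0.096), or 5.22-fold (limma adjusted p = 2.62e-08), and no 2 groups overlapped. AGPOA3-15823 differed almost as much. It read -2.13, -2.11 and -2.16 in the controls, -1.56, -1.51 and -1.61 with F2RL2, 0.89, 0.81 and 0.76 with LGR4, and -0.98, -0.98 and -0.91 with GPR124 siRNA, with F2RL2 minus LGR4 at -2.38 (SE 0.062, limma adjusted p = 6.29e-10). In both, the LGR4 arrays alone stood above the reference.

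Only 2 members were higher with F2RL2 than with LGR4 siRNA. The first read -2.22, -2.26 and -2.38 in the controls, -0.85, -1.02 and -0.86 with F2RL2, -1.50, -1.53 and -1.37 with LGR4, and -1.65, -1.41 and -1.45 with GPR124 siRNA. F2RL2 lay above both other siRNAs without overlap, by 0.56 over LGR4 (SE 0.085, limma adjusted p = 0.000831) and by 0.60 over GPR124 (adjusted p = 0.000107). The difference from LGR4 did not pass with median centring or on slide 2 alone (adjusted p = 0.128 and 0.0502, lowest over all alternatives 0.000454). The second read -2.45, -2.46 and -2.48 in the controls, -1.62, -1.53 and -1.62 with F2RL2, -1.91, -1.80 and -1.89 with LGR4, and -2.15, -2.22 and -1.91 with GPR124 siRNA. Its difference of 0.27 from LGR4 (SE 0.080, limma adjusted p = 0.0402) did not pass in 15 of 21 alternatives, whose adjusted p ran from 0.0101 to 0.407, and it was lost when any 1 of the control, F2RL2 or LGR4 arrays was left out.

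F2RL2 and GPR124 differed in both directions. With F2RL2 siRNA 71 members (39.7%) were lower and 24 (13.4%) higher than with GPR124 siRNA, and 84 did not pass (limma, same threshold). Of all measured probes 41.4% passed, 22% lower and 19.4% higher, so the higher direction was less common among members than over all probes. The median difference, F2RL2 minus GPR124, was -0.19, and 17 of the members that passed differed by at least 1. The share of higher members among those that passed, 25.3%, was 7.69% on the centred processed signals, 10.1% with median centring in place of loess and 36.7% in the Cy3 channel alone. On the processed signals the median of F2RL2 minus GPR124 over all measured probes was itself -0.25. No slide held both groups, so no comparison within a slide could be made. With slide as a fixed block 10 members were higher and 43 lower, where 16.5% of all measured probes passed.

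A group of 3 members was set apart from the others by high GPR124 values. The one with the largest difference read -1.71, -1.65 and -1.49 in the controls, -0.93, -1.31 and -1.15 with F2RL2, -0.48, -0.074 and -0.013 with LGR4, and 1.65, 2.33 and 2.40 with GPR124 siRNA. Its F2RL2 minus GPR124 difference was -3.26 (SE 0.19, limma adjusted p = 9.06e-08), or 9.57-fold. The next read -1.83, -1.82 and -1.56, then -0.87, -1.35 and -1.16, then -0.30, -0.054 and -0.044, then 1.64, 2.26 and 1.96 in the same order of groups, and its F2RL2 minus GPR124 difference was -3.08 (SE 0.16, adjusted p = 4.52e-08). The remaining one, second by the difference between LGR4 and GPR124, read -1.56, -1.57 and -1.46, then -0.89, -1.11 and -0.87, then -0.36, 0.070 and 0.078, then 1.54, 2.22 and 2.35. LGR4 minus GPR124 was -2.32 in the first of these (SE 0.19, limma adjusted p = 1.51e-06) and -2.11 in the last (SE 0.18, adjusted p = 2.49e-06). The last was not well above background in the sample channel on any control array. The smallest of the 3 estimates of GPR124 over control there was 10.8-fold. In all 3 the GPR124 arrays alone stood above 1, and GPR124 replicate 1 was the lowest of its group.

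The opposite case was also present. The member furthest above GPR124 with F2RL2 siRNA read -1.40, -1.41 and -1.34 in the controls, 0.25, 0.44 and 0.43 with F2RL2, 1.93, 1.77 and 2.01 with LGR4, and -0.42, -0.47 and -0.56 with GPR124 siRNA. No 2 of the 4 groups overlapped, F2RL2 minus GPR124 was 0.86 (SE 0.080, limma adjusted p = 3.74e-06), and LGR4 minus GPR124 was 2.39 (SE 0.080, adjusted p = 3.42e-09). The next by F2RL2 minus GPR124 read -1.40, -1.49 and -1.45 in the controls, 0.020, -0.36 and 0.17 with F2RL2, -0.32, 0.020 and 0.21 with LGR4, and -0.90, -0.81 and -0.80 with GPR124 siRNA. Its difference of 0.78 (SE 0.14, limma adjusted p = 0.000643) missed the threshold with median centring (adjusted p = 0.0511, lowest over all alternatives 0.000135). F2RL2 and LGR4 overlapped in this one, both close to the reference.

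Between LGR4 and GPR124 the loess scale and the processed signals gave opposite majorities. After loess 81 members were higher and 22 lower with LGR4 than with GPR124 siRNA, and 76 did not pass, where 37.5% of all measured probes passed, 19% higher and 18.5% lower (limma, same threshold). The median difference, LGR4 minus GPR124, was 0.29 over the members and 0.0058 over all probes, and 28 of those that passed differed by at least 1. Without GPR124 replicate 1, 75 were higher and 35 lower, where 39.1% of all measured probes passed. On the centred processed signals 87 of 179 members passed, a share no higher than the 48.8% of all measured probes. Of these members 34 were higher and 53 lower. The median difference there was -0.055 over the 179 members and -0.37 over all measured probes. Relative to all measured probes the members' median was thus 0.31 on that scale and 0.29 after loess. On slide 3 alone, which held 1 LGR4 array and the 3 GPR124 arrays, the median over the members was 0.29 on the loess scale. Over all measured probes it was 0.0027. This rests on a lone LGR4 array and carries no replication of LGR4. The largest difference was in AGPOA3-44204, with LGR4 minus GPR124 at 2.63 (SE 0.15, limma adjusted p = 1.25e-07), or 6.17-fold.

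When the 3 tests were read together, LGR4 siRNA was the highest of the 3 by both of its tests in 56 members and the lowest in none, against 3.98% and 1.75% of all measured probes. At an unadjusted p under 0.05 in both limma tests, LGR4 was the lowest in 0 members. The share of all probes at that threshold was not computed, so this count adds no comparison. These counts with LGR4 lowest were made on the loess scale alone, and the choice of members bears on them. On the centred processed signals, the 40 probes that missed only the LGR4 threshold were lowest with LGR4, and they were left out. The same holds for the 264 probes that missed only the F2RL2 threshold and the 89 that missed only that of GPR124. F2RL2 was lower than both others in 52 members (4.3% of all probes) and higher than both in 2 (3.67%). GPR124 was higher than both others in 21 and lower than both in 21, where 15% and 13.8% of all probes were. Without GPR124 replicate 1, it was higher than both others in 34 members. All pairs differed in 33 members (6.03%), and of these 18 had the order F2RL2, GPR124, LGR4 from low to high (0.405%), 8 the order F2RL2, LGR4, GPR124 (1.73%) and 6 the order GPR124, F2RL2, LGR4 (1.42%). No pair differed in 37 members, where 49.8% of all measured probes showed no pair that differed. On the processed signals LGR4 was higher than both in 30, GPR124 higher than both in 48 and lower than both in 4, while F2RL2 was lower than both in 51. With slide as a fixed block F2RL2 was lower than both in 30. For these settings, and without GPR124 replicate 1, the shares of all probes with each pattern were not computed. The counts there have no background to be read against.

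The member whose 3 targeting means lay closest together read -0.87, -1.08 and -0.81 in the controls, -0.25, -0.34 and -0.26 with F2RL2, -0.40, -0.28 and -0.22 with LGR4, and -0.47, 0.035 and -0.37 with GPR124 siRNA. The means lay within 0.032 of each other, 1.54-fold to 1.57-fold above control, with SEs of the pair differences of 0.12. The next read -0.93, -0.93 and -0.79, then 0.055, -0.69 and -0.34, then -0.56, -0.23 and -0.19, then -0.65, 0.048 and -0.086, with means within 0.097 and SEs of 0.20. Both had all targeting arrays above all controls. An undetected pair difference does not show that the siRNAs acted alike, least of all in the second, whose F2RL2 arrays spread over more than its distance from the controls.

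The differences from control lay in the sample channel and hardly in the reference. After quantile normalization of each channel by itself, the median difference in Cy3 was 0.73 for F2RL2, 1.08 for LGR4 and 0.82 for GPR124 siRNA, and in Cy5 it was 0.061, 0.042 and -0.00012. The Cy3 signal was above its control mean in all 179 members for F2RL2 and LGR4 and in 177 for GPR124. The choice of members asked for a higher ratio of Cy3 to Cy5 over one shared reference, so these counts are no result. A Cy3 difference of at least 0.5 in size was found in 159, 165 and 137 members, and in 9.60%, 13.6% and 22.2% of all measured probes. A Cy5 difference of at least 0.5 in size was found in 1, 4 and 2 members, and in 2.37%, 4.0% and 5.60% of all measured probes. The 2 members without a higher Cy3 signal under GPR124 siRNA had a lower reference signal instead. In one, Cy3 was lower by 0.15 and Cy5 by 1.11, for a log ratio difference of 0.91. In the other, Cy3 was lower by 0.064 and Cy5 by 0.32, for a difference of 0.21.

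Replicates within a targeting group spread more than those of the controls. The median SD of a member over 3 arrays was 0.070 in the controls, 0.14 with F2RL2, 0.11 with LGR4 and 0.17 with GPR124 siRNA, and over all measured probes it was 0.075, 0.11, 0.099 and 0.12. All controls lay on slide 1, while the F2RL2 and LGR4 arrays were each split between slides and the GPR124 arrays lay on slide 3. Slide and siRNA therefore cannot be told apart in this spread. The F2RL2 array that shared a slide with the controls had the highest median difference from control of its group, 0.84, against 0.65 and 0.71 for the F2RL2 arrays on slide 2. The LGR4 arrays gave 1.13 and 1.18 on slide 2 and 1.14 on slide 3. The GPR124 arrays, all on slide 3, gave 0.80, 1.00 and 0.95. The controls shared no slide with LGR4 or GPR124, so slide and siRNA cannot be told apart for those 2 contrasts except through arrays of the other groups.

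Some members had nearly the same profile. Among the 176 members with a value on every array, 28 pairs differed by at most 0.25 on each of the 12 arrays, and they joined into 17 families with 40 members. The largest held 4 members. One family of 4 had means of -3.38 to -3.27 in the controls, -2.10 to -2.04 with F2RL2, -1.71 to -1.62 with LGR4 and -2.14 to -1.99 with GPR124 siRNA. The other had -2.70 to -2.53, -1.99 to -1.83, -0.46 to -0.33 and -1.71 to -1.54, with LGR4 far above the rest. The 2 brightest members belonged to a family of 3. AGPOA3-15823 had 1 such partner, with means of -2.21, -1.55, 0.82 and -0.93 for control, F2RL2, LGR4 and GPR124. Whether these probes share a target is not given in the files used here, so the number of genes behind the 179 members is unknown. Members lay in all 4 quadrants of the array, with 22.3% to 28.5% of them in each, against 24.7% to 25.4% of all probes.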

How the data were processed

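The 12 samples were hybridised to Agilent arrays of 2 colours. Feature Extraction 9.5.3.1 read the spots, per the file headers, and the deposited median spot and background intensity columns carry no normalization, while its processed signals are background-subtracted and dye-normalized. The deposited log10 ratio is that of Cy5 over Cy3, and it served to check direction. The authors' deposited value table holds log2 ratios, within 5e-10 of log2 processed Cy3 over Cy5. Their column medians were 0.12, 0.14 and 0.087 (control), 0.11, 0.13 and -0.089 (F2RL2), 0.12, 0.11 and 0.15 (LGR4), and -0.25, -0.15 and -0.21 (GPR124), so no centring remains unknown.

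Members were found on processed signals. All other values used normexp (offset 50) on median signals and loess with the 1417 control spots at weight 0. Outlier spots were left out. A probe was kept (32346 were) when 1 of its channels lay well above background on 3 or more arrays. limma 3.58.1 in R 4.3.3 was fitted over all 12 arrays, with Benjamini-Hochberg adjustment over all kept probes and a threshold of 0.05, and was tested on simulated data. The number of arrays limits the precision. Members, lists and tests were chosen with earlier results of these data known. Members described on every array were those with extreme control values, reference brightness, smallest difference from control or pair differences without overlap, and the closest targeting means. At most 2 identifiers in each direction are printed. The design had listed marker genes, which need gene names and were not analysed here. Alternatives covered normalization, filters, Cy3 alone, slide, replicate number and each array left out.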

Additional observations from a re-analysis of the deposited data

How the results depend on the processing

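The number of probes that met the thresholds, 179, became 803 without the requirement on background, 79 with a difference of at least 1, 61 on loess log ratios, 138 with median centring, and 167 to 194 with 1 array left out. Members that differed between F2RL2 and LGR4 siRNA numbered 59 with median centring, 61 with Cy3 alone, 59 on slide 2 alone and 78 to 107 with 1 array left out, against 96. Of all measured probes 4.2%, 7.5%, 3.46% and 9.09% to 15.7% passed in the same order, against 13.9%. Between F2RL2 and GPR124 siRNA the members numbered 53 with slide as a fixed block and 84 to 107 with 1 array left out, against 95. Of all measured probes 16.5% and 35% to 42% passed, against 41.4%. Between LGR4 and GPR124 siRNA the members numbered 87 on processed signals, where the majority reversed, 57 with median centring (39 higher and 18 lower) and 91 to 110 with 1 array left out, against 103. Of all measured probes 48.8%, 22.7% and 31% to 39% passed in the same order, against 37.5%. The median difference from control was 1.04, 1.45 and 1.56 for F2RL2, LGR4 and GPR124 on processed signals and 0.84, 1.32 and 1.01 with slide as a fixed block. It was 0.84 for F2RL2 on slide 1 alone, 1.08 for LGR4 with Cy3 alone and 1.02 for GPR124 with median centring. With 1 array left out it was 0.68 to 0.77, 1.16 to 1.18 and 0.87 to 0.98. No slide held both groups for F2RL2 with GPR124, or for control with LGR4 or GPR124, so these had no value within a slide.

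Same-numbered arrays did not deviate together: 7 of 18 pairs correlated above 0.1 (range -0.588 to 0.552), and 3 of 12 arrays correlated best with their own number. With the replicate number as a block, 87, 90 and 96 members differed between F2RL2 and LGR4, F2RL2 and GPR124, and LGR4 and GPR124. Of all measured probes 11.7%, 38.6% and 34.9% did. For the single members described, 230 of 248 tested alternatives kept direction and threshold, 18 lost the threshold and 0 reversed; of 784 values without a test, 67 moved by more than the spread between arrays. In the counts of patterns, F2RL2 below both others ranged from 30 to 61 members, LGR4 above both from 30 to 58, GPR124 above both from 16 to 48 (34 without GPR124 replicate 1), GPR124 below both from 3 to 22, and no difference from 25 to 79. The pattern counts under other settings were chosen after seeing the data, and shares of all probes were not computed for them. Signal over background limits the dim members, for which the smallest of 3 estimates is given. The causes of these shifts were not tested.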
